A study of Mus musculus with 12 samples.

Results

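Genes that mark B cells and antigen presentation were followed across the livers and brains of *Mettl5* knockout and control mice: *Ighm*, *Igkc*, *Jchain*, *Cd79a*, *Cd79b*, *Ms4a1*, *Cd74*, *H2-Aa* and *H2-Ab1*. They were taken by symbol, as 9 of the 55487 genes in the count table, and every one had a row. METTL5 is the methyltransferase that places a single N6-methyladenosine on 18S ribosomal RNA. The 12 RNA-seq libraries came from 6 mice, each giving 1 liver and 1 brain, so that each of the 4 groups (WT liver, KO liver, WT brain, KO brain) held 3 libraries. WT mice were B, D and E, and KO mice were A, C and F. KO mice carried a whole-body deletion of *Mettl5* exon 2, made by crossing a floxed line from C57bl/6 x 129S6 hybrid ES cells, backcrossed to B6, to a CMV-driven Cre strain (B6.C-Tg(CMV-cre)1Cgn/J). This is 1 targeted line. The labels call the controls WT, whereas the study's text also describes heterozygous controls for its RNA-seq, and the labels give neither age nor sex.

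Total counts ranged from 14403309 to 21623180 per library. *Mettl5* itself was at 10.5 ± 3.87 counts per 1000000 counts (CPM, scaled by TMM within each tissue) in WT liver and 3.85 ± 0.215 in KO liver, and at 6.66 ± 2.14 in WT brain and 3.70 ± 0.328 in KO brain (mean ± SD, n = 3 each), with every KO library below every WT library in both tissues. Hepatocyte markers summed to between 65897 and 83090 CPM in the livers and neuron markers to between 3589 and 4321 CPM in the brains, so the tissues matched their labels. Mice E and F carried almost no Y-linked counts, at most 20 per library, against at least 2112 in each library of the other 4 mice. Mitochondrial ribosomal RNA took 10.7% to 16.9% of the counts in the WT livers and 7.36% to 8.66% in the KO livers, but 7.63% to 17.7% in the WT brains and 21.4% to 31.6% in the KO brains, so this share separated the genotypes in both tissues, in opposite directions.

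B cells recognise antigen through a surface immunoglobulin whose heavy and light chains are each built from a rearranged variable (V) segment joined to a constant region. The *Cd79a* and *Cd79b* products carry the signal from that receptor, and plasma cells, the end stage of the lineage, secrete immunoglobulin in large amounts, with the J chain linking IgM and IgA into polymers. B cells also present peptides on MHC class II, whose alpha and beta chains fold with the invariant chain CD74, and in liver the class II genes are shared with dendritic cells and Kupffer cells, the resident macrophages, while in brain few cells express them at rest. Whole tissue was measured, so fewer cells of a type and less RNA per cell cannot be told apart.

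No member passed an adjusted p of 0.1 for genotype in either tissue by edgeR's quasi-likelihood test. In liver 8 of the 9 members had enough counts to be tested, with a background of 0% called among 14075 genes, and in brain 6 of 9, with a background of 0.064% among 17188 genes. At an unadjusted p under 0.05 a single member, *Ighm*, was lower in KO liver, where the background was 7.33% in either direction and 4.57% lower, and no member passed in brain, where it was 11%. The median log2 fold change, KO over WT, was -0.58 over the 8 members in liver and -0.17 over the 6 in brain, beside -0.0024 and -0.0016 over all genes tested. The 5 B cell members tested in liver all had negative log2 fold changes and the 3 class II members all had positive ones, while 50.4% of all genes tested were below 0. In brain 4 of the 6 members tested were below 0, beside 50.2% of all genes. The plot of the 9 genes by library shows how far single mice set these means.

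**Figure D1:**
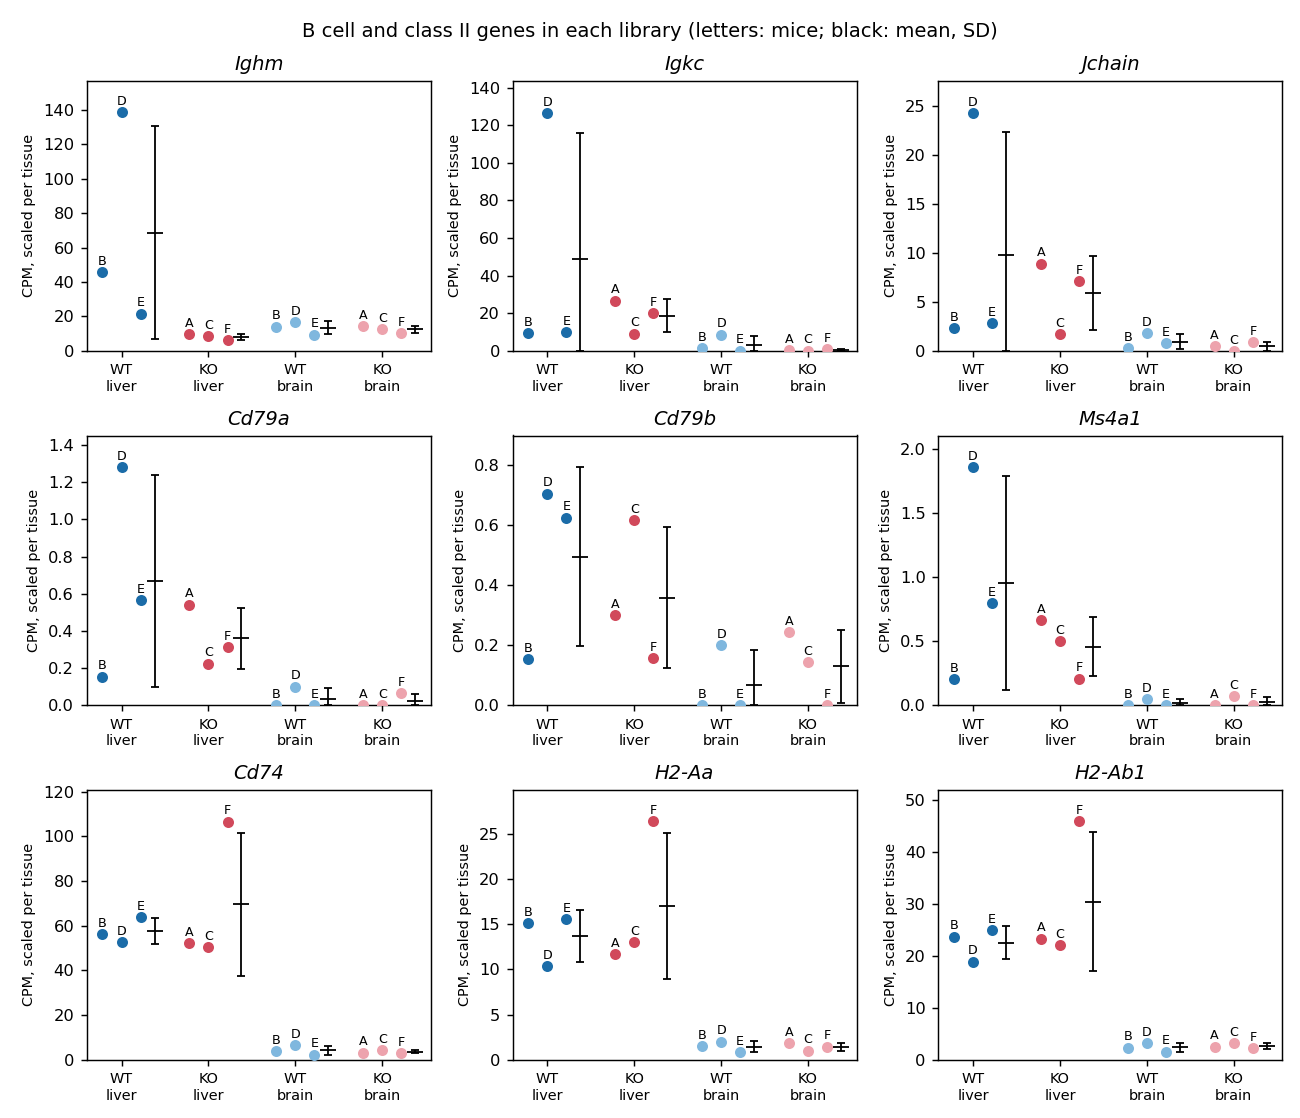
CPM (scaled within each tissue, linear axes from 0) of each gene in the 12 libraries, grouped as WT liver, KO liver, WT brain and KO brain; each point is 1 library with the letter of its mouse, and the black bar is the group mean with 1 SD (n = 3), drawn no lower than 0. Mouse D is the highest liver for *Ighm*, *Igkc*, *Jchain*, *Cd79a*, *Cd79b* and *Ms4a1*, mouse F is the highest for *Cd74*, *H2-Aa* and *H2-Ab1*, and *Ighm* is the gene whose 3 KO livers lie below all 3 WT livers.

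*Ighm* encodes the mu heavy chain constant region of IgM and lies at chr12:113418558-113422730 on the minus strand (mm10). In WT liver it was at 45.9 CPM in mouse B, 139 in mouse D and 21.6 in mouse E. In KO liver it was at 9.88 CPM in mouse A, 8.51 in mouse C and 6.36 in mouse F. Every KO liver was thus below every WT liver, an order seen in 6.44% of the genes tested, and the KO livers lay close together while the WT livers spanned a wide range. The fitted log2 fold change was -3.06 (SE 0.80), with an unadjusted p of 0.0137 and an adjusted p of 0.499 by edgeR's quasi-likelihood test. DESeq2 called *Ighm* at an adjusted p of 0.0157, where it called 171 genes or 1.1% of those tested, and *Ighm* is one of the genes the study itself called on these libraries, so its direction is not independent evidence. Without mouse D the log2 fold change was -2.03 (SE 0.34, adjusted p 0.102 by edgeR), and over all leave-one-out fits it was between -3.48 and -2.03. Its adjusted p ran from 0.0157 to 0.985 over the alternatives. Among the mice without Y-linked counts the levels were 21.6 CPM in E and 6.36 in F, and with Y-linked counts as a covariate the log2 fold change was -2.84 (adjusted p 0.289 by edgeR).

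In brain *Ighm* had 14.05 CPM in mouse B, 16.7 in D and 9.34 in E of the WT group, and 14.3 in A, 12.7 in C and 10.3 in F of the KO group. The groups overlapped, with a log2 fold change of -0.10 (SE 0.23, adjusted p 0.874 by edgeR). CPM scaled within each tissue do not set liver against brain. Scaled by TMM over all 12 libraries, the KO livers had 8.17 to 12.7 CPM of *Ighm* and the brains 7.36 to 13.2, so that they overlapped, while the WT livers had 27.0 to 172. The genotype effect in liver minus that in brain was -2.92 (SE 0.76, adjusted p 0.232 by edgeR) on the log2 scale, with a background of 0% of 18944 genes called. Its unadjusted p was 0.00262, and 10.6% of genes had an unadjusted p under 0.05, 5.07% with a lower effect in liver. With the mouse as a block, so that each liver is set against the brain of its own animal, it was -2.57 (SE 0.42) and passed at an adjusted p of 0.0484 by edgeR, where 68 genes, 0.359%, were called. DESeq2 also called it, at an adjusted p of 0.00575, with a background of 2.08%, and over the alternatives the adjusted p ran from 0.00575 to 0.591. The share of mitochondrial ribosomal RNA moves with this contrast, and with mitochondrial genes left out the difference was -2.94 (SE 0.77, adjusted p 0.224 by edgeR). The part of RNA quality in it was not tested.

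**Figure D2:**
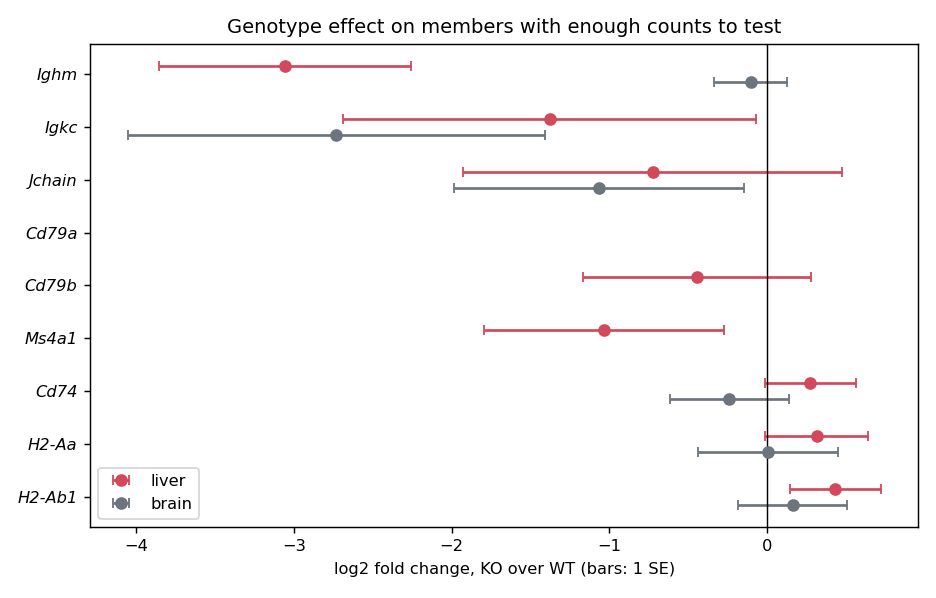
log2 fold change of KO over WT for each member in liver (red) and brain (grey), with bars of 1 SE from the edgeR fit; a missing point is a gene with too few counts to test. *Ighm* in liver, at -3.06, is the point farthest from 0, while the class II genes lie between -0.24 and 0.43 in both tissues.

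The kappa light chain did not follow the mu heavy chain. *Igkc*, the constant region of kappa (chr6:70726435-70726966, plus strand), was at 9.32 CPM in WT liver B, 127 in D and 9.88 in E, and at 26.7 in KO liver A, 9.18 in C and 19.97 in F. Mouse D alone was above the KO livers, and the other WT livers matched the lowest KO liver. The log2 fold change was -1.38 (SE 1.31, adjusted p 0.889 by edgeR), and without mouse D it turned to 0.96 (SE 0.44, adjusted p 0.820). In brain *Igkc* had 20, 171 and 2 counts in WT mice B, D and E, against 4, 1 and 16 in KO mice A, C and F. The log2 fold change of -2.73 (SE 1.32, adjusted p 0.478 by edgeR) rested on the brain of mouse D, since it was -0.42 without it.

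*Jchain*, at chr5:88519809-88527891 on the minus strand, moved with *Igkc* rather than with *Ighm*. It was at 2.32, 24.3 and 2.84 CPM in WT livers B, D and E and at 8.91, 1.68 and 7.14 in KO livers A, C and F. KO livers A and F were thus above WT livers B and E for both genes, and D was above all. The log2 fold change was -0.72 (SE 1.20, adjusted p 0.952 by edgeR) and turned to 1.20 (SE 0.67, adjusted p 0.901) without mouse D. In brain it had from 0 to 36 counts, with the 36 in mouse D and the 0 in KO mouse C, and a log2 fold change of -1.06 (SE 0.92, adjusted p 0.656).

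Set against each other, *Ighm* had 4.93 counts per *Igkc* count in WT liver B, 1.10 in D and 2.19 in E. The same ratio was 0.369 in KO liver A, 0.927 in C and 0.319 in F, so that the 3 KO livers lay below the 3 WT livers here too. Against V segments the KO livers were below the WT livers as well, though C and D nearly met: there were 11.6, 4.13 and 6.25 *Ighm* counts per Ighv count in WT livers B, D and E, and 0.808, 4.11 and 0.739 in KO livers A, C and F. For kappa, the ratio of *Igkc* to Igkv counts was between 2.24 and 3.85 in all 6 livers. In the brains *Ighm* ran from 1.94 counts per *Igkc* count, in mouse D, to 177, in mouse C. The 5 brains other than D held from 156 to 218 *Ighm* counts beside 1 to 20 *Igkc* counts and 4 to 14 V segment counts. Counts per gene do not show whether these reads come from rearranged *Ighm* transcripts, which was not tested and limits every *Ighm* value given for brain. *Ighg2c*, the constant gene of IgG2c, showed the same mismatch in brain, with 10 to 34 counts per library where *Ighg2b* had 0 or 1 in every brain except D, which had 67.

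**Figure D3:**
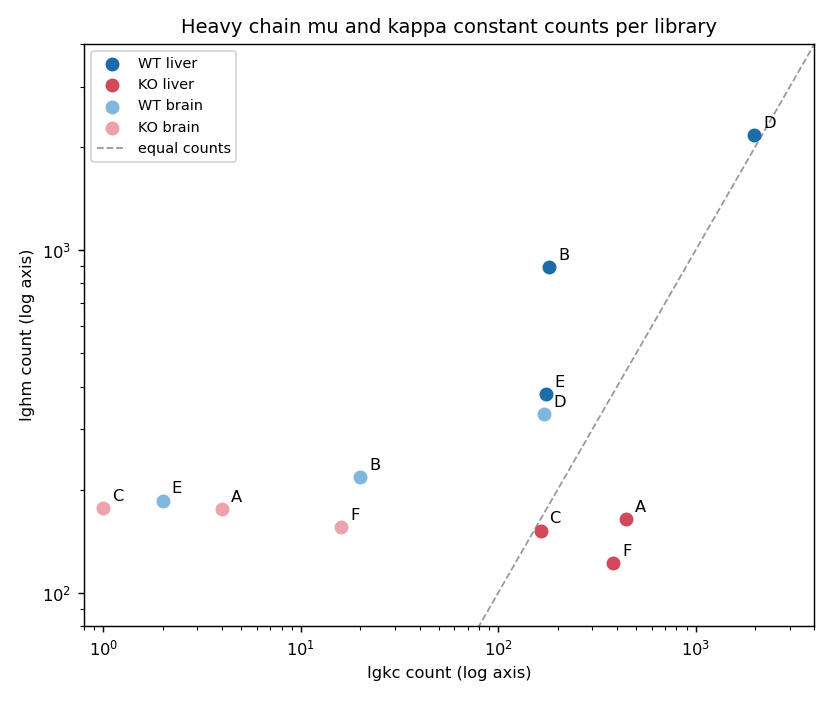
Counts of *Ighm* against counts of *Igkc* in the 12 libraries, both on log axes, coloured by group and lettered by mouse; the dashed line marks equal counts. WT livers lie above the line, KO livers below it, and 5 brains form a row between 156 and 218 *Ighm* counts at 20 or fewer *Igkc* counts.

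The V segments give a readout of immunoglobulin that the choice of genes did not use, but from the same libraries. V and constant regions are joined in the same chains, so a shared order of mice is not independent evidence. The table holds 183 Ighv, 160 Igkv and 3 Iglv segments. Ighv and Igkv counts together were 124, 1100 and 109 in WT livers B, D and E and 401, 82 and 307 in KO livers A, C and F, over 46, 112 and 51 segments and 80, 44 and 74 segments. KO livers A and F were above WT livers B and E, and D was highest, the order also seen for *Igkc* and *Jchain*. Drawn down to the 82 counts of the smallest library, each liver was expected to show between 37.3 and 44.0 different segments, so the counts of every liver were spread over many segments, while brain D was expected to show 12.9. Summed over V segments and constant genes, immunoglobulin took 164 ± 189 counts per 1000000 counts in WT liver and 67.8 ± 35.9 in KO liver (n = 3 each), and the exact two-sided permutation test gave p = 0.7 (adjusted p = 1 over 10 comparisons). In brain the values were 25.0 ± 16.7 and 14.7 ± 1.44, with an exact permutation p of 0.5 (adjusted p = 1). With 3 against 3 libraries the smallest p this test can give is 0.1. Without mouse D the liver means were 54.9 in WT and 67.8 in KO, and the sign of the difference turned.

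**Figure D4:**
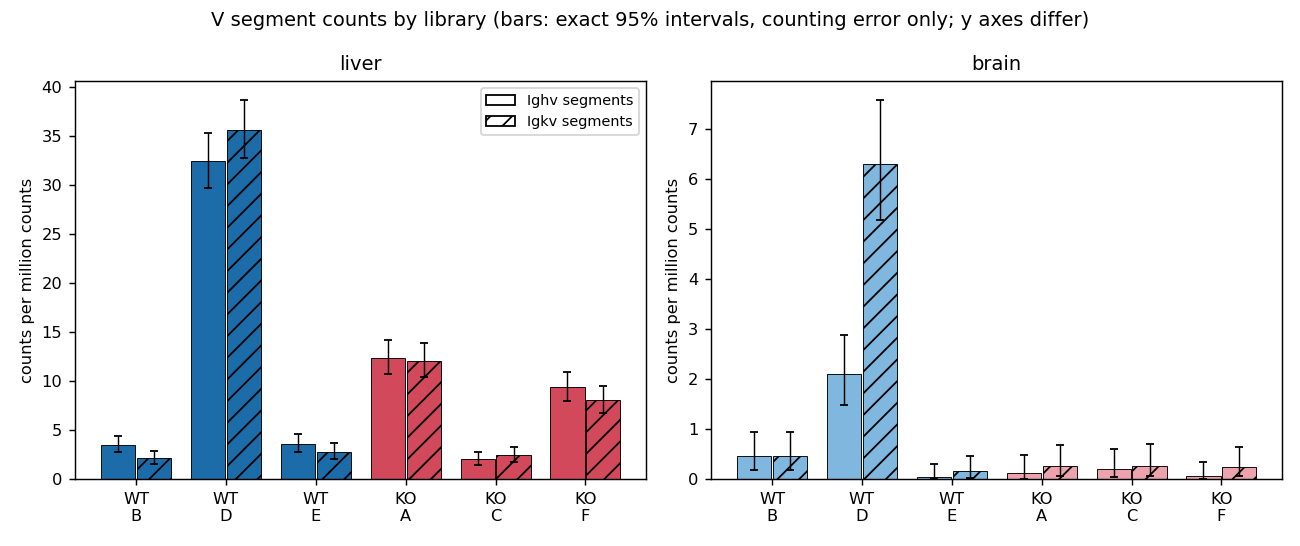
Counts of Ighv (plain bars) and Igkv (hatched bars) segments, per 1000000 counts, in each liver (left) and brain (right) library, with exact 95% binomial intervals that cover counting error only; the y axes differ. Liver D reaches 32.5 and 35.7, livers A and F stand above B, C and E, and brain D, at 2.10 and 6.30, stands above the other 5 brains, none of which exceeds 0.464.

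Mouse D carried some of the same V segments in its brain as in its liver. Its brain had 148 V counts in 16 segments, and 15 of those 16 also had counts in its liver, beside 6 to 10 of the 16 in each other liver, all of which had fewer V counts. *Igkv12-46* made up 147 of 576 Igkv counts (25.5%) in its liver and 83 of 111 (74.8%) in its brain, and had 1 to 8 counts in the other livers and 0 in the other brains. *Ighv1-26* made up 31 of 524 Ighv counts (5.92%) in liver D and 21 of 37 (56.8%) in brain D. *Ighv1-43* had 30 counts in liver D, 6 in brain D and 0 in the other 10 libraries. Other abundant segments of liver D were not seen in its brain: *Ighv1-53* with 101 counts and *Igkv3-2* with 117 both had 0 there. The brain therefore did not hold the liver's segments in the liver's proportions. For scale, *Alb*, the hepatocyte albumin gene, had 485 counts in brain D against 897211 in liver D, or 0.0541%. In the other mice this share was 0.0133% to 0.0266%. *Igkc* in brain D was 8.65% of its count in liver D, within the 0.610% to 11.05% of the other mice. *Jchain* was at 9.47% in mouse D and at 0% to 30% in the others. *Igkv12-46* was at 56.5% in mouse D and at 0% in the others. *Hbb-bs*, a beta globin gene of red cells, was at 105% of its liver count in mouse D and at 22.7% to 63.4% in the others, and the part of residual blood in these counts was not tested.

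V segments of one family are close copies, so reads can be shared between them. The last 300 bases of the 2 segments that lead brain D are printed with their nearest relative in the table, from the GENCODE M21 transcripts, 5′ to 3′, with capitals at the bases that differ between the members of a pair. *Igkv12-46* (chr6:69764523-69765022, minus strand) and *Igkv12-41* (chr6:69858420-69858884, minus strand) differ at 15 of 300 bases, and liver D had 147 counts of the former and 3 of the latter. *Ighv1-26* (chr12:114788372-114788805, minus strand) and *Ighv1-18* (chr12:114682632-114683065, minus strand) differ at 8 bases, with 31 counts of the former and 11 of the latter in liver D and 21 and 0 in brain D.
Igkv12-46: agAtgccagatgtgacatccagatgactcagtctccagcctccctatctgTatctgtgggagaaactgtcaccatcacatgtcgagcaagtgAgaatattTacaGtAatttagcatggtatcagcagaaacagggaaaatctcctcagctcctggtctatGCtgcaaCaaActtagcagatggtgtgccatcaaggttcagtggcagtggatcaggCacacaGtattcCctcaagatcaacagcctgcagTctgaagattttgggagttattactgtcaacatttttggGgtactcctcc
Igkv12-41: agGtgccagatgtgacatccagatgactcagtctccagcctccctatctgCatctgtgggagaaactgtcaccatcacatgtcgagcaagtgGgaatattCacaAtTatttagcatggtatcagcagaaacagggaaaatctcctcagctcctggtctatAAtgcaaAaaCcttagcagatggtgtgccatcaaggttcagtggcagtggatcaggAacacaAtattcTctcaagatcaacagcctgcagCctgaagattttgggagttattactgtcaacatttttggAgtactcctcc
Ighv1-26: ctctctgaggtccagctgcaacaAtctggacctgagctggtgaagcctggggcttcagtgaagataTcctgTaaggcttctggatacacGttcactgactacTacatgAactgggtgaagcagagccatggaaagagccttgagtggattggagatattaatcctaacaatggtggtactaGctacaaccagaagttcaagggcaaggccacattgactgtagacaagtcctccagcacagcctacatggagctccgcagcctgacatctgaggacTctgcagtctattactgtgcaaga
Ighv1-18: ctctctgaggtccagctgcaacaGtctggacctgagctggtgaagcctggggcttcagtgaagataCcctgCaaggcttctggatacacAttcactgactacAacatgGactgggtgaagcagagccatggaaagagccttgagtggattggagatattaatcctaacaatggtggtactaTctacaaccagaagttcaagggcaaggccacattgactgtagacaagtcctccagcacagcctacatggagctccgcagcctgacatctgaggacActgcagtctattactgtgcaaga

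Kappa segments other than *Igkv12-46* led in the KO livers. *Igkv1-110* was the most abundant kappa segment in both A and F, with 32 of 198 Igkv counts (16.2%) and 33 of 142 (23.2%). KO liver C was led by *Igkv19-93* with 13 of 45 counts (28.9%), WT liver B by *Igkv12-46* with 8 of 47 (17.0%) and WT liver E by *Igkv8-16* with 5 of 48 (10.4%). Among heavy chain segments *Ighv1-53* led in D, C and F, *Ighv1-81* in A, *Ighv1-80* in B and *Ighv1-11* in E.

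Of the 10 other constant genes, 5 were tested in liver and none passed, with 3 log2 fold changes above 0, 2 below and a median of 0.10. *Igha*, the constant region of IgA, was at 3.66, 4.99 and 2.44 CPM in WT livers B, D and E and at 10.1, 1.06 and 9.80 in KO livers A, C and F. Its log2 fold change was 0.92 (SE 0.78, adjusted p 0.874 by edgeR), opposite in sign to that of *Ighm*. *Ighd*, the IgD constant region that naive B cells splice from the same transcript as *Ighm*, had 26, 18 and 15 counts in the WT livers and 17, 8 and 7 in the KO livers, with a log2 fold change of -0.87 (SE 0.50, adjusted p 0.774). *Ighg2b* followed mouse D, with 356 counts there against 12 and 29 in the other WT livers and 35 to 192 in the KO livers, and its log2 fold change was -0.45 (SE 1.52, adjusted p 0.979).

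The surface markers of B cells were near the limit of detection. *Cd79a* (chr7:24897381-24902197, plus strand) had 3, 20 and 10 counts in WT livers B, D and E and 9, 4 and 6 in KO livers A, C and F, and was too low to be tested. *Cd79b* (chr11:106311341-106314762, minus strand) had 3, 11 and 11 counts in the WT livers and 5, 11 and 3 in the KO livers. *Ms4a1* (chr19:11249675-11266241, minus strand), which encodes CD20, had 4, 29 and 14 counts in the WT livers and 11, 9 and 4 in the KO livers. Each gene overlapped between the groups, and mouse D was highest or joint highest in count. The log2 fold change was -0.44 (SE 0.72, adjusted p 0.949 by edgeR) for *Cd79b* and -1.03 (SE 0.76, adjusted p 0.848) for *Ms4a1*. Over leave-one-out these ran from -1.09 to -0.0744 and from -1.53 to -0.120. In brain the 3 genes had from 0 to 4 counts in each library, and none was tested.

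Of the 25 genes of the wider B cell list, 9 were tested in liver and none passed, with 6 log2 fold changes below 0, 3 above and a median of -0.28. *Pax5*, the transcription factor that fixes B cell identity, had the smallest p, with a log2 fold change of -1.14 (SE 0.47, adjusted p 0.659 by edgeR). It was at 1.22 CPM in WT liver and 0.553 in KO liver, from 7 to 23 counts per liver. Every KO library was below every WT library, an order seen in 6.44% of the genes tested. *Bank1*, a B cell scaffold protein, was at -0.92 (SE 0.47, adjusted p 0.738), and *Ebf1*, an early B cell factor, at -1.42 (SE 0.79, adjusted p 0.766). In brain 9 genes of the list were tested and none passed, with a median of -0.02. *Ebf1* had the smallest p there, at -1.07 (SE 0.24, adjusted p 0.320), with every KO brain below every WT brain, an order seen in 7.94% of the genes tested. It had 106 to 439 counts per brain, where *Cd79a* had at most 2.

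Among 8 genes of B cell precursors, *Rag1*, *Rag2*, *Vpreb2* and *Igll1* had 0 counts in all 6 livers. *Dntt*, the terminal transferase active in lymphoid precursors, had 92, 72 and 113 counts in WT livers B, D and E and 21, 81 and 87 in KO livers A, C and F, but 0 or 1 in each brain. In CPM every KO liver, at 1.26, 4.53 and 4.54, was below every WT liver, at 4.74, 4.61 and 6.42. That order was seen in 6.44% of the genes tested, and KO livers C and F nearly met WT liver D. The log2 fold change of *Dntt* in liver was -0.60 (SE 0.43, adjusted p 0.838 by edgeR), and the median over the 3 genes tested was -0.55. The plasma cell list had 7 of 10 genes tested in liver, none passing, with a median of -0.25. Most of its counts came from *Sdc1*, *Xbp1*, *Txndc5* and *Creld2*, which hepatocytes also express, while *Mzb1* and *Tnfrsf17*, which are closer to the plasma cell itself, had at most 5 and 1 counts in a liver.

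The class II genes showed another order of mice. *Cd74*, the invariant chain gene on chromosome 18, was at 56.3, 52.6 and 63.8 CPM in WT livers B, D and E and at 52.1, 50.3 and 107 in KO livers A, C and F. *H2-Aa*, the class II alpha chain (chr17:34282744-34287823, minus strand), was at 15.1, 10.4 and 15.6 CPM in the WT livers and 11.7, 13.04 and 26.4 in the KO livers. *H2-Ab1*, its beta chain partner (chr17:34257689-34269419, plus strand), was at 23.7, 18.9 and 24.9 CPM and at 23.3, 21.996 and 45.8. For all 3 genes mouse F was the highest liver, KO livers A and C lay within or near the WT range, and mouse D, highest for immunoglobulin, was the lowest liver for *H2-Aa* and *H2-Ab1*. The log2 fold changes were 0.28 (SE 0.29, adjusted p 0.899 by edgeR) for *Cd74*, 0.31 (SE 0.33, adjusted p 0.899) for *H2-Aa* and 0.43 (SE 0.29, adjusted p 0.815) for *H2-Ab1*. Without mouse F they were -0.17, -0.15 and 0.01, so the positive signs of the first 2 rested on that library and little of the effect on *H2-Ab1* was left.

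The 3 genes kept nearly fixed proportions across the livers. There were 2.24 to 2.79 *Cd74* counts and 0.501 to 0.639 *H2-Aa* counts per *H2-Ab1* count over the 6 livers, although *H2-Ab1* itself ran from 295 to 879 counts. *H2-Eb1*, the E beta chain of class II, which was not among the 9, had 0.485 to 0.695 counts per *H2-Ab1* count and stood at 11.5, 11.1 and 17.3 CPM in WT livers B, D and E and 11.6, 10.9 and 25.4 in KO livers A, C and F. In the brains the ratio of *Cd74* to *H2-Ab1* was lower, between 1.26 and 1.98, and did not overlap with the livers, while the ratio of *H2-Aa* to *H2-Ab1*, from 0.311 to 0.742, did.

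Class II promoters carry conserved X and Y boxes, read by the RFX complex and NF-Y under the coactivator CIITA. The RefSeq promoters (GRCm38.p6, from 250 bases before to 50 after the start) of *H2-Aa* (chr17:34287774-34288073, minus strand) and *H2-Eb1* (chr17:34305617-34305916, plus strand) are printed 5′ to 3′, with capitals at the core letters GCAAC of the X box and at the Y box letters CTGATTGG. They are shown as promoters that hold these letters, and the part of the letters in the levels by mouse was not tested. *H2-DMa* and *H2-DMb1* had promoters without the pair, and *Cd74* and *H2-Ab1* had no promoter to search.
H2-Aa: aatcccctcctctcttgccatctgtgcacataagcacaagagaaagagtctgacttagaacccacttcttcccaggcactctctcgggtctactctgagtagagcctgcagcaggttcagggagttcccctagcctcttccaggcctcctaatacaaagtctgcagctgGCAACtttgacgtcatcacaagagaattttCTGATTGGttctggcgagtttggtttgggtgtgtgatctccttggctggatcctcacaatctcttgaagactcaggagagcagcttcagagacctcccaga
H2-Eb1: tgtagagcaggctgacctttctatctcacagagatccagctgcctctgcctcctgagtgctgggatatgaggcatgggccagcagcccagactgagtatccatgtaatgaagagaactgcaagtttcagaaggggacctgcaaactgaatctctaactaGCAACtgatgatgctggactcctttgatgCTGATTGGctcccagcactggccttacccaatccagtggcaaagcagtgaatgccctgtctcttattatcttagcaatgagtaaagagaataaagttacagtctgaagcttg

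The core and the Y box were 25 bases apart in *H2-Aa* and 24 in *H2-Eb1*, with the Y box starting 51 and 62 bases before the transcript start. Both strands were searched, and the 2 motifs do not overlap. The Y box letters were found in 1346 of 32851 promoters (4.10%), and the core followed within 40 bases by the Y box in 54 (0.164%). Of the 14 class II and class II pathway genes with a promoter in the table, which include regulators and proteases such as *Rfx5* and *Ctss*, 3 held the pair, *H2-Oa* being the other, with 25 bases between. The octamer ATGCAAAT, known from immunoglobulin promoters, was in 570 promoters (1.74%) and in none of the 3 members with a promoter in the table, which were *Jchain*, *Cd79a* and *H2-Aa*. Of the 30 other B cell and plasma cell genes with a promoter there, 3 held it. A match describes letters in this window and not a bound site.

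Of the 16 other class II pathway genes in the table, 13 were tested in liver and none passed, with 10 log2 fold changes above 0, 3 below and a median of 0.10. *Rfxap*, a subunit of the RFX complex, was at 0.27 (SE 0.14, adjusted p 0.747 by edgeR), with every KO liver above every WT liver, as for 6.5% of the genes tested. *Ctsl*, a protease that trims the invariant chain, was at 0.23 (SE 0.15, adjusted p 0.798), and *H2-Ob*, which modulates peptide loading in B cells, at -0.85 (SE 0.55, adjusted p 0.806). *Ciita* was at 2.11, 2.05 and 4.66 CPM in WT livers B, D and E and 4.34, 1.62 and 5.21 in KO livers A, C and F, again highest in F. In brain 10 were tested, none passed and the median was -0.13, with *Rfxap* at -0.44 (SE 0.20, adjusted p 0.458) and *Rfxank* at -0.52 (SE 0.24, adjusted p 0.462). The 14 class I pathway genes, which serve antigen presentation in all nucleated cells, had a median of -0.03 in liver and -0.30 in brain over the 13 tested there, and none passed in either.

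Kupffer cell and macrophage markers also differed between the livers, and they are given because these cells express class II. Summed over 13 genes they were at 359, 571 and 432 CPM in WT livers B, D and E and at 272, 258 and 503 in KO livers A, C and F. All 13 had a log2 fold change below 0 in liver, with a median of -0.38, and none passed. *Marco*, a scavenger receptor, was at -1.29 (SE 0.46, adjusted p 0.584 by edgeR) and *Cd163*, a haemoglobin receptor, at -0.46 (SE 0.17, adjusted p 0.589). *Clec4f*, a defining Kupffer cell marker, was at 76.2, 118 and 92.7 CPM in the WT livers and 62.8, 61.3 and 113 in the KO livers. Mouse F was high for both the class II genes and this list, whereas mouse D was highest for this list and lowest for *H2-Aa* and *H2-Ab1*. Dendritic cell markers summed to 23.6, 23.4 and 35.5 CPM in the WT livers and 30.2, 23.3 and 38.1 in the KO livers, highest in F, with *Itgax*, an integrin of dendritic cells, at 0.83 (SE 0.42, adjusted p 0.738). T cell markers summed to between 3.47 and 8.91 CPM, natural killer cell markers to between 0.951 and 2.97 and neutrophil markers to between 0.224 and 3.52 in the livers. The part of any of these cells in the class II levels was not tested.

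**Figure D5:**
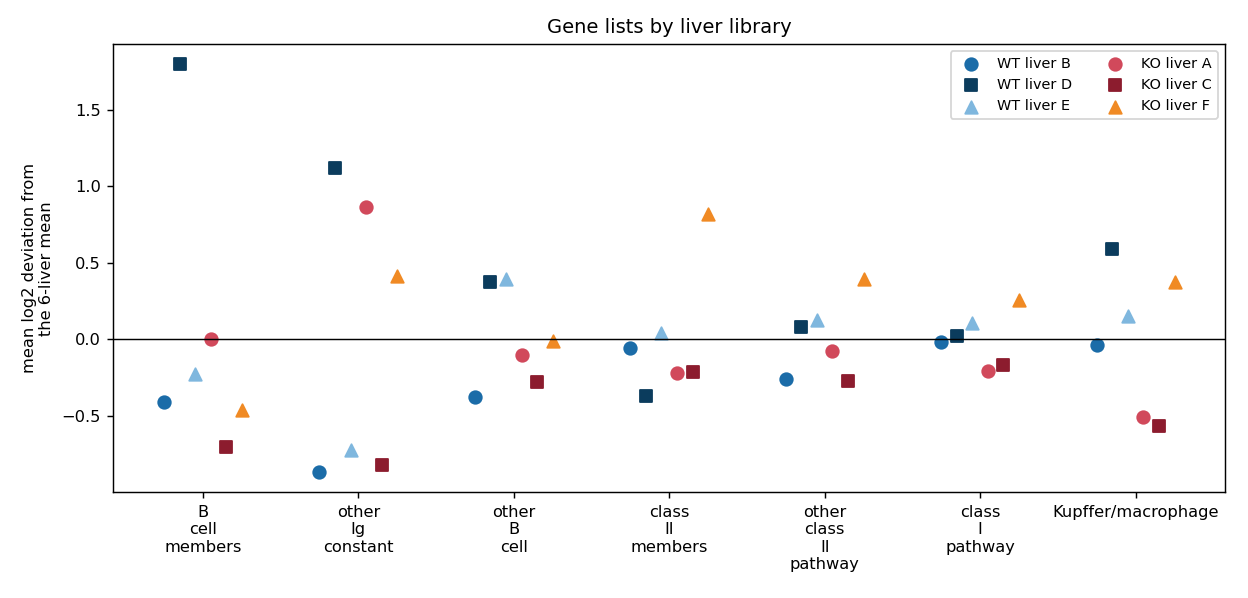
Mean log2 deviation of each gene list from the mean of the 6 livers, 1 point per liver library (blue for WT, red or orange for KO), over the genes of each list tested in liver. Mouse D is at 1.80 for the B cell members and mouse F at 0.82 for the class II members, and livers A and F lie above B, C and E for the other immunoglobulin constant genes.

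In brain the class II genes were low and the groups overlapped. *Cd74* was at 3.74, 6.47 and 2.26 CPM in WT brains B, D and E and at 3.17, 4.32 and 3.10 in KO brains A, C and F, with a log2 fold change of -0.24 (SE 0.38, adjusted p 0.815 by edgeR). *H2-Aa* was at 1.48, 2.01 and 0.804 CPM and at 1.87, 1.01 and 1.45, with a log2 fold change of 0.01 (SE 0.44, adjusted p 0.996). *H2-Ab1* was at 2.32, 3.26 and 1.56 CPM and at 2.52, 3.24 and 2.24, with a log2 fold change of 0.16 (SE 0.35, adjusted p 0.866). Mouse D was the highest brain for all 3 genes, whereas among the livers it was the lowest for *H2-Aa* and *H2-Ab1*. Microglia markers, from the brain's resident macrophages, ran from 119 to 144 CPM and were at 129 in brain D. Brain D was also the highest brain for erythroid markers (63.3 CPM against 32.7 to 44.3), for hepatocyte markers (390 against 124 to 272, of which *Ttr*, which the choroid plexus also expresses, made up 345 and 97.4 to 245, leaving 45.8 against 25.9 to 28.5) and for class I pathway genes (1107 against 821 to 982), and the part of blood or other tissue in its class II levels was not tested. Without mouse D the log2 fold change of *Cd74* in brain turned to 0.24.

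Between the tissues all 8 members tested were called, and higher in liver than in brain, by edgeR at adjusted p values from 7.81e-10 to 0.00357. Of the 18944 genes tested 84.9% were called, and 37.9% were called higher in liver. The log2 differences, liver over brain, were 1.57 (SE 0.38) for *Ighm*, 5.20 (SE 1.15) for *Igkc*, 4.18 (SE 0.84) for *Jchain*, 2.72 (SE 0.74) for *Cd79b*, 5.13 (SE 0.81) for *Ms4a1*, 4.73 (SE 0.28) for *Cd74*, 4.10 (SE 0.28) for *H2-Aa* and 4.06 (SE 0.24) for *H2-Ab1*. The median over all genes tested was -0.22. In CPM scaled over all 12 libraries every liver was above every brain for 7 of these 8 genes, beside 29% of all genes tested, and *Ighm* overlapped. For *Cd79b* the gap was small, with the lowest liver at 0.196 and the highest brain at 0.191 CPM. *Ighm* had the smallest difference of the 8. *Cd79a* was not tested, and its 52 counts over the livers against 3 over the brains give a ratio of 15.6 relative to all counts (exact 95% interval 5.04 to 77.9, counting error only). Of the related lists, 14 of 14 class I genes and 11 of 14 class II pathway genes tested were called higher in liver, but 6 of 11 other B cell genes, with *Ebf1* lower in liver at -3.83 (SE 0.38).

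Per length, as CPM per kilobase of exon, the order of the genes differed between the groups. In WT liver *Igkc* led at 91.3 ± 127, followed by *Ighm* at 36.4 ± 32.7, *Cd74* at 34.3 ± 3.40, *H2-Ab1* at 8.76 ± 1.24, *Jchain* at 3.90 ± 4.99 and *H2-Aa* at 3.61 ± 0.763. In that order *Cd74* was above *H2-Ab1*, and *H2-Aa* above *Cd79a*, in every library, and the other neighbours overlapped. In KO liver *Cd74* had the highest mean at 41.5 ± 19.1 and overlapped with *Igkc* at 35.0 ± 16.7, followed by *H2-Ab1* at 11.8 ± 5.22, *H2-Aa* at 4.49 ± 2.14 and *Ighm* at 4.37 ± 0.940. *Ighm* had the highest mean per length in both brain groups, at 7.08 ± 1.97 in WT and 6.60 ± 1.07 in KO. In WT brain it overlapped with *Igkc* at 6.25 ± 8.63, which was above it in mouse D, and in KO brain it lay above the next gene, *Cd74*, in every library. The means of *Cd79a*, *Cd79b* and *Ms4a1* were the 3 lowest in all 4 groups, with at most 0.458 ± 0.391 CPM per kilobase.

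The genes whose log2 CPM over the 6 livers was most like the mean of the 6 B cell members were *Nucb2* (Pearson r = 0.997), *Cacna1a* (0.990), *Mkks* (0.987), *Rap1b* (0.973) and *Gm27653* (0.960). Those most like the mean of the 3 class II members were *Ocln* (0.993), *Metrnl* (0.986), *Smyd3* (0.986), *Tmem63a* (0.986) and *Ntmt1* (0.985), beside 0.942 for *H2-Eb1*, 0.870 for *H2-DMa*, 0.803 for *H2-DMb1*, 0.671 for *Itgax*, 0.639 for *Ciita*, 0.572 for *Ctss*, 0.539 for *C1qa*, 0.418 for *Clec4f* and 0.234 for *Cd5l*. These values describe 6 livers that share 1 high library in each case, mouse D for the former and mouse F for the latter.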

How the data were processed

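RNA was measured in the liver and brain of 6 mice. Per the study's methods, the authors trimmed single-end reads from a stranded total RNA kit with Trimmomatic, after FastQC 0.11.5, aligned them to mm10 with STAR 2.7.3a and counted them on exons, by strand, with featureCounts. The deposited values are raw counts per gene, not normalized, and no count column lacked a sample. Gene IDs were matched to symbols for 55141 of 55487 genes, and the IDs and positions of all 9 genes were the same in GENCODE M21. The 9 genes and all lists were chosen with earlier results of these data known.

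Counts were fitted in edgeR 4.0.16 (R 4.3.3) with TMM scaling, filterByExpr and the robust quasi-likelihood F test. Genotype was tested within each tissue. The difference of its effects and liver against brain were tested over all 12 libraries, without a block for the mouse. A call is a Benjamini-Hochberg adjusted p under 0.1 over all genes tested. CPM are counts per 1000000 counts, scaled by TMM within each tissue or, where liver is set against brain, over all 12 libraries, and log2 CPM uses an offset of 0.5. Immunoglobulin sums were compared by exact permutation with scipy 1.17.1. Intervals cover counting error only. The separate animals are the replicates, and the labels tie each liver to the brain of the same mouse. The correlation of their deviations from the group means, over 12574 genes, was 0.118, 0.126 and 0.112 for mice D, E and F and -0.0446, -0.0566 and -0.0177 for A, B and C. The fits were tested on simulated data with a fixed spread, no mouse effect and changes placed only in more abundant genes. Members with few counts or a wide spread between mice were therefore not covered.

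Values are given for the 9 genes in every library. Of each list, counts, medians and up to 4 examples with the smallest p are named, and of each library its leading V segments. For the mean of each group of members, the 5 genes most correlated with it over the livers are named. *Ighg2b*, *Ighg2c*, *Ciita*, *H2-Eb1*, *Clec4f*, *Alb*, *Hbb-bs*, the abundant plasma cell genes and the genes at or near 0 were picked after their values were seen. The expression of *Marchf1* was not analysed here. Alternatives were DESeq2 1.42.0, its size factors, no filter on low counts, mitochondrial genes left out, Y-linked counts as a covariate, all libraries in one fit, the mouse as a block, and each mouse left out in turn. Leaving out *Ighm* from the immunoglobulin sum, and mice D and F together, were added after seeing the data. A further B cell gene of the lists is not reported here.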

Additional observations from a re-analysis of the deposited data

Results flagged for a closer look

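*Ighm*, the mu heavy chain constant gene, differed between the tissues in its response to genotype once each liver was paired with the brain of the same mouse. The log2 fold change of KO over WT in liver minus that in brain was -2.57 (SE 0.42), with an adjusted p of 0.0484 by edgeR's quasi-likelihood test with the mouse as a block. Without the block it was -2.92 (SE 0.76) at an adjusted p of 0.232 by edgeR. The liver and brain deviations of a mouse from its group means correlated only weakly, at -0.0566 to 0.126 by mouse. The study counts its RNA-seq mice as 3 pairs of KO and heterozygous animals, a pairing that the labels do not give and no fit used. All 3 KO livers were below all 3 WT livers, while the KO and WT brains overlapped. The brain side of this contrast rests on *Ighm* counts that, in 5 of 6 brains, stood beside few *Igkc* and V segment counts, and whether they come from rearranged transcripts was not tested. The share of mitochondrial ribosomal RNA was lower in every KO liver and higher in every KO brain than in the WT libraries, and its part in this difference was not tested.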

How the results depend on the processing

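Of 348 alternative fits of single members, 318 kept the sign and the side of the threshold, 3 passed the threshold where the reported fit did not and 27 had the other sign. The 3 were *Ighm*: in liver by DESeq2 (-3.06), and in the difference between tissues by DESeq2 (-2.95) and with the replicate block (-2.57), which brought the members called from 0 to 1 in each case. The paired fit with this replicate block called 68 genes in the difference and changed no other member's call. The other sign appeared when one mouse was left out, with ranges in liver from -1.88 to 0.96 for *Igkc*, -1.21 to 1.20 for *Jchain*, -0.17 to 0.47 for *Cd74* and -0.15 to 0.52 for *H2-Aa*. In brain the ranges were -0.30 to 0.086 for *Ighm*, -0.53 to 0.24 for *Cd74*, -0.28 to 0.34 for *H2-Aa* and -0.063 to 0.46 for *H2-Ab1*. In the difference they were -2.05 to 0.50 for *Ms4a1*, -0.0061 to 0.93 for *Cd74*, -0.17 to 0.77 for *H2-Aa* and -0.23 to 0.67 for *H2-Ab1*. *H2-Aa* in brain, reported at 0.01, was at -0.0041 by DESeq2, -0.018 without the filter and -0.0012 over all 12 libraries. Without mice D and F, an alternative added after seeing the data, the liver values were 0.90 for *Igkc*, 1.03 for *Jchain*, 0.26 for *Cd79b*, 0.23 for *Ms4a1*, -0.23 for *Cd74*, -0.31 for *H2-Aa* and -0.10 for *H2-Ab1*, and *Ighm* was at -1.88 (adjusted p 0.173 by edgeR). The immunoglobulin share in liver, KO minus WT, was -95.9 counts per 1000000 counts and ran from -154 to 12.9 over leave-one-out, positive only without mouse D. In brain it was -10.3 and ran from -16.6 to -0.806. With *Ighm* left out, the liver shares were 21.2, 247 and 24.9 in WT mice B, D and E and 90.0, 20.8 and 67.3 in KO mice A, C and F. The brain shares were then 4.05, 25.1 and 2.29 in WT mice B, D and E and 3.25, 3.47 and 3.02 in KO mice A, C and F. Most of the brain share outside mouse D was thus *Ighm*.

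Over all genes, the liver comparison called 0 by edgeR, with 1032 at an unadjusted p under 0.05, 171 by DESeq2, 443 without the filter, 3 over all 12 libraries, 82 with the Y-linked covariate, 100 without mice D and F, and 0 to 87 over leave-one-out, the 87 without mouse D. The brain comparison called 11, and 269 by DESeq2, 1000 without the filter and 2 to 23 over leave-one-out. The difference called 0 by edgeR, with 2004 at an unadjusted p under 0.05, 1 with DESeq2 size factors, 369 by DESeq2, 183 without the filter, 1 without mitochondrial genes and 0 to 86 over leave-one-out, the 86 without mouse D. The causes were not tested. *Cd79a*, *Cd79b* and *Ms4a1* had 29 counts or fewer in each liver, and the size of difference that 3 mice in a group could show in them was not tested.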
